A study of Homo sapiens with 12 samples.

Results

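The difference between the response of SUM149PT and the response of HCC38 to knock-down of a lncRNA, RP11-1911.1 in the labels and LINC01956 in the annotation, was measured gene by gene. Both are human breast cancer cell lines that the study uses as basal-like models. The response of a line is the log2 fold change of its RP19 KD libraries over its LNA NS libraries, and the difference of responses is the SUM149PT value minus the HCC38 value. It was taken over 8 of the 12 RNA-seq libraries of the series, 2 for each line and treatment, and over 21325 genes with enough counts of the 63677 genes listed. Cells of the RP19 KD groups (condition RP11-1911.1 KD) were transfected with 50 nM of LNA1 and LNA2, locked nucleic acid oligonucleotides against the lncRNA. Cells of the LNA NS groups (condition LNA CTR) received a non-targeting oligonucleotide. In all of them the medium was changed after 6 h and RNA was collected at 24 h, and the libraries were strand-specific and made from poly-A RNA. The other 4 libraries came from another line, MDA-MB-468, given the same treatments. According to the study's methods, SUM149PT was grown in DMEM/F12 with serum, insulin and hydrocortisone and HCC38 in RPMI with serum, so the line and its medium cannot be told apart in what follows.

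LncRNAs are transcripts without a long reading frame, and many of those kept in the nucleus act on chromatin and transcription. Antisense LNAs pair with such a transcript and lead RNase H to cut it, which also removes transcripts that never reach the cytoplasm. Dividing cells express replication genes under E2F control as they enter S phase and a later set of mitotic genes before they divide. Stressed cells instead switch on immediate early transcription factors, the ATF4 branch of the integrated stress response, heat shock chaperones or interferon-stimulated genes, and lines of 1 cancer type can differ in which of these they use.

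The targeted lncRNA, annotated as LINC01956 on the minus strand of chromosome 2 (GRCh37, chr2:119524541-119592686), fell in both lines. It had 31 and 14 counts in the knock-down libraries of SUM149PT, against 398 and 344 counts in its LNA NS libraries. In HCC38 it had 81 and 76 counts in the knock-down libraries, against 668 and 737 counts in the LNA NS libraries. No knock-down library came near an LNA NS library in either line. The log2 fold change was -4.41 in SUM149PT and -3.09 in HCC38, a difference of -1.32 (standard error 0.309, adjusted p = 0.0146), so the transcript fell further in SUM149PT. The line and the depth of its knock-down therefore cannot be told apart in the differences below either. Adjusted p-values come from the quasi-likelihood F test of edgeR, adjusted by Benjamini and Hochberg's method over all 21325 genes, and a gene is called at an adjusted p under 0.1.

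Counts assigned to genes ran between 32187835 and 56191152 per library over these 8 libraries. Values are CPM, counts scaled to library size after TMM normalization, given for replicate 1 and then replicate 2. The labels name 2 replicates per group but do not say that they came from separate cultures, so the p-values measure the spread between these libraries, which may be technical. In bulk RNA, fewer cells of a kind and less RNA per cell cannot be told apart. The keratin genes KRT5 and KRT8 fitted epithelial cancer cells. KRT5, a basal keratin, was at 1292 to 1884 CPM in SUM149PT and at 46.3 to 62.9 CPM in HCC38. The luminal keratin gene KRT8 was also higher in SUM149PT, at 1236 to 1435 CPM against 346.9 to 437.5 CPM. EN1, on the list of basal markers, was lower there, at 18.9 to 25.9 CPM against 55.04 to 86.3 CPM. The estrogen receptor gene ESR1 reached at most 2.87 CPM and the leukocyte gene PTPRC at most 0.0803 CPM in any library of both lines. DCN, a fibroblast marker, was at 7.98 to 16.04 CPM in SUM149PT and at most 0.431 CPM in HCC38. The endothelial marker CDH5 was at 2.08 and 2.23 CPM in the knock-down libraries of SUM149PT, against 0.241 and 0.424 CPM with LNA NS. Mitochondrially encoded genes held 5.79% to 6.48% of CPM in the knock-down libraries of SUM149PT, against 4.77% to 5.84% in its LNA NS libraries, and 4.20% to 4.98% in the knock-down libraries of HCC38, against 4.44% to 4.61%.

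The response differed between the lines for 3453 genes, 16.2% of those tested. For 2036 genes (9.55%) it was higher in SUM149PT, meaning a larger rise or a smaller fall, and for 1417 genes (6.64%) it was lower. Without adjustment, 5410 genes had a p under 0.05. A different response was called for 20.8% of protein-coding genes, the kind that fills most lists below, and for 4.76% of lncRNAs. The split between both directions moved with the scaling, the filter and the libraries fitted. With TMM 59.0% of called genes were higher in SUM149PT, against 49.6% with RLE, 47.8% with upper quartile scaling and 50.7% with DESeq2. TMM gave 47.1% when only the 8 libraries were fitted and 46.1% among genes with at least 10 counts in each of them. Without a filter on low counts it gave 63.3%. The median difference over all genes was 0.06 with TMM, 0.01 with RLE and -0.0042 with upper quartile scaling. Values for single genes and lists are therefore read against that median. More than a 2-fold difference was found for 824 genes (3.86%), of which 470 (2.20%) were higher and 354 (1.66%) lower in SUM149PT. Leaving out single libraries lowered the called count to 1519 without knock-down replicate 1 of SUM149PT, 1622 without knock-down replicate 2 of HCC38, 1927 without LNA NS replicate 2 of SUM149PT and 2018 without LNA NS replicate 1 of HCC38.

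Taken alone, 20.0% of tested genes rose and 18.0% fell in SUM149PT, and 15.5% rose and 18.4% fell in HCC38. Of the 3453 genes with a different response, 845 rose in SUM149PT with no call in HCC38 and 616 fell in SUM149PT with no call in HCC38. Another 417 rose and 577 fell in HCC38 with no call in SUM149PT. Of the genes that rose in both lines, 185 rose more in SUM149PT and 59 more in HCC38, and of those that fell in both, 148 fell further in SUM149PT and 164 in HCC38. For 72 genes neither line was called. Opposite calls were found for 370 genes: 224 (1.05% of those tested) rose in SUM149PT and fell in HCC38, and 146 (0.685%) did the reverse. These numbers depended on the scaling, the filter and the libraries fitted. They were 178 and 195 genes with RLE, 138 and 236 with upper quartile scaling and 170 and 192 with DESeq2. With TMM they were 136 and 187 in a fit of the 8 libraries alone. Requiring at least 10 counts in each of these libraries gave 174 and 248, and no filter on low counts gave 195 and 119. Leaving out knock-down replicate 2 of HCC38 lowered the opposite calls to 147. Over the 10396 genes with a mean of 5 CPM or more in at least 1 group of each line, the 2 responses had a Pearson correlation of 0.66 across genes, which are not independent replicates and share their libraries. Over all 21325 tested genes it was 0.35. Spearman correlations were 0.58 over the 10396 genes and 0.42 over all.

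**Figure D1:**
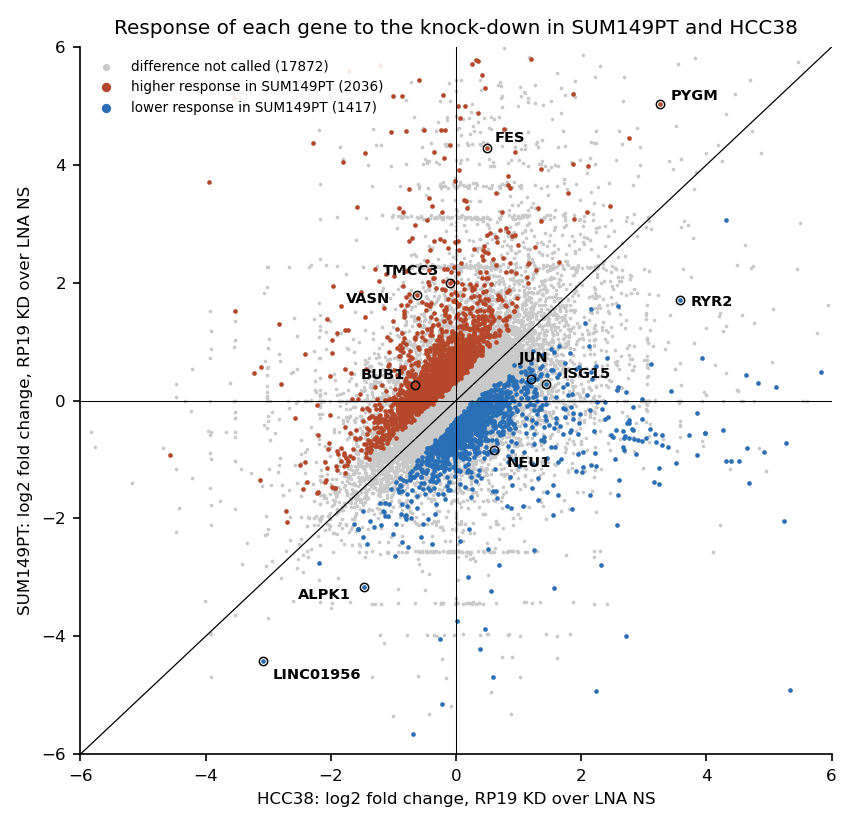
Response of each tested gene in SUM149PT (vertical axis) and HCC38 (horizontal axis), both as log2 fold change of RP19 KD over LNA NS. Red points had a higher and blue points a lower response in SUM149PT at an adjusted p under 0.1, gray points were not called, circles mark labelled genes, the diagonal marks equal responses, and 32 genes beyond 6 log2 units are not drawn. Most colored points lie along the diagonal on either side of it, and FES and VASN lie far above it.

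Base composition and gene span moved with the difference. Among protein-coding genes, the median difference was 0.33 in the quintile with the least GC and -0.23 in the quintile with the most. Higher responses in SUM149PT were called for 25.4% of genes of the first of these quintiles, with GC of 31.0% to 42.5%, and for 3.38% of the last, with GC of 59.2% to 75.97%. Lower responses were called for 1.75% and 20.4% of genes in these ranges. Across genes, GC had a Spearman correlation of -0.356 with the difference, while gene span had one of 0.21. GC also had correlations of -0.342, -0.0927, -0.292 and -0.261 with the difference between replicate 1 and replicate 2 of the SUM149PT knock-down, SUM149PT LNA NS, HCC38 knock-down and HCC38 LNA NS groups, within which no treatment differs. For span these were 0.278, 0.315, 0.37 and -0.187. With smooth trends on GC and span removed from each library, an alternative added after the data were seen, 2899 genes were called, 1651 higher and 1248 lower in SUM149PT. Of the 2899, 2007 had been called with the trends left in. How much of each difference goes with GC or span was not tested beyond this, and the counts with both trends removed are given with the gene groups.

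**Figure D2:**
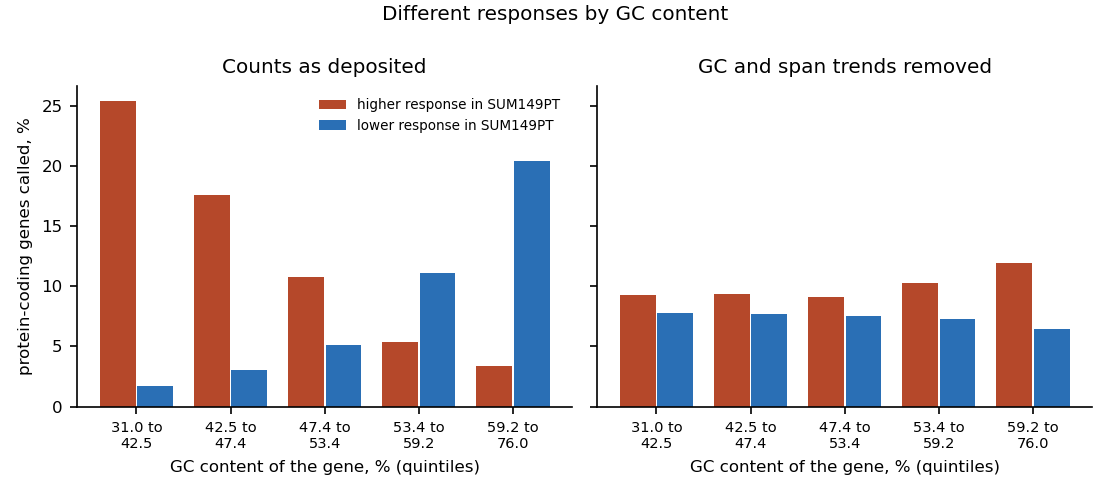
Percent of protein-coding genes whose response was called higher (red) or lower (blue) in SUM149PT, by quintile of GC content of the gene, for the counts as deposited (left) and with GC and span trends removed (right). The red bars fall and the blue bars rise with GC on the left, from 25.4% and 1.75% in the first quintile to 3.38% and 20.4% in the fifth, and are nearly level on the right.

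Mitotic genes had the largest share of called members among the lists of at least 10 tested genes. These genes build the spindle, check the attachment of chromosomes and drive entry into and exit from mitosis, and many are switched on late in the cell cycle through CCAAT boxes, bound by NF-Y, and cell cycle homology elements (CHR), bound by the DREAM and MuvB complexes. Of 42 tested, 24 had a higher response in SUM149PT, 1 had a lower one and 17 did not pass, with a median difference of 0.41 against 0.06 over all genes. In SUM149PT, 16 rose and 3 fell. In HCC38, 2 rose and 19 fell. The lower member, named after its values were seen, was CDC25B, a phosphatase that activates CDK1. The counts were 10 to 25 higher and 0 to 2 lower over the alternatives, and 16 higher and 0 lower with GC and span trends removed, where the median was 0.23.

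The promoters of BUB1, CCNB1 and ASPM, the genes of this list with the smallest p, are shown because the members moved together. Each runs over 250 bases before and 50 after the RefSeq start on GRCh38.p14, in transcript direction: chr2:110678014-110678313 on the minus strand for BUB1, chr5:69166900-69167199 on the plus strand for CCNB1 and chr1:197146620-197146919 on the minus strand for ASPM. Capitals mark CCAAT boxes (CCAAT, or ATTGG on the other strand) and TTTGAA (or TTCAAA), the only form of the CHR searched, none of which overlap.
BUB1: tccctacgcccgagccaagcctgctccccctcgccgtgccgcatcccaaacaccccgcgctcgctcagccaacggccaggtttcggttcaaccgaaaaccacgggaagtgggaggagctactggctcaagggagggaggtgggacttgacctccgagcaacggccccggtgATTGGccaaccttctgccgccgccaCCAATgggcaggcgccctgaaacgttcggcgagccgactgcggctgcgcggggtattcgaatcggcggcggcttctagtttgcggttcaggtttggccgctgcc
CCNB1: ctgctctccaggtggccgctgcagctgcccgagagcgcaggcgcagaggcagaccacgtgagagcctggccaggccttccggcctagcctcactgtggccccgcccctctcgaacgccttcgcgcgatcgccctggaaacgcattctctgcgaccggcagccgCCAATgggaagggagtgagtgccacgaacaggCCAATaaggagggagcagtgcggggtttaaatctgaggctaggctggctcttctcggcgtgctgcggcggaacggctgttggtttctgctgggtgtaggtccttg
ASPM: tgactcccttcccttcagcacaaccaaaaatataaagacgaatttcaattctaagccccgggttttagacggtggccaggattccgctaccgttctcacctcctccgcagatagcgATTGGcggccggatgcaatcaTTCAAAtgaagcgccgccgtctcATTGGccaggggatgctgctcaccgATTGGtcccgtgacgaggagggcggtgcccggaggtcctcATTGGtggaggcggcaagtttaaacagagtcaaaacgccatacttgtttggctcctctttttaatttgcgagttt
BUB1 and CCNB1 hold 2 CCAAT boxes each and no TTTGAA, and ASPM holds 4 and 1. Other forms of the CHR were not searched, so BUB1 and CCNB1 are not shown to lack one. Of the 35 mitotic genes with a promoter in the table, 27 held CCAAT and 24 held TTTGAA, against 35.7% and 15.43% of 27305 promoters of the same length. A match of letters is not evidence of a bound site.

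BUB1, a kinase of the spindle checkpoint, had 129 and 111 CPM in the knock-down libraries of SUM149PT, against 105 and 95.6 CPM in its LNA NS libraries. It had 116 and 102 CPM in the knock-down libraries of HCC38, against 178 and 165 CPM in its LNA NS libraries. Both knock-down libraries thus lay above both LNA NS libraries in SUM149PT and below them in HCC38, and the difference was 0.92 (standard error 0.141, adjusted p = 0.00168). CCNB1, the cyclin that activates CDK1 at mitotic entry, showed the same arrangement. Its levels were 449 and 379 CPM after knock-down and 283 and 299 CPM with LNA NS in SUM149PT, and 179 and 173 and 234 and 202 CPM in HCC38, a difference of 0.82 (standard error 0.139, adjusted p = 0.00295).

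For ASPM, which organizes spindle poles, the change lay in SUM149PT, with 184 and 153 CPM after knock-down and 104 and 77.9 CPM with LNA NS, while in HCC38 85.2 and 67.5 CPM stood against 90.1 and 85.2 CPM. Its difference was 1.09 (standard error 0.197, adjusted p = 0.00419). For the spindle checkpoint gene MAD2L1 the change lay in HCC38. It had 48.3 and 45.4 CPM after knock-down against 51.8 and 57.01 CPM with LNA NS in SUM149PT, a response of -0.21 without a call, and 33.2 and 33.8 CPM against 75.4 and 61.2 CPM in HCC38, a log2 fold change of -1.03. KIF23, a kinesin of the central spindle, rose in SUM149PT (0.27) and fell in HCC38 (-0.36). The differences of all 5 genes passed under each of the 19 alternatives. Together they show 3 patterns: opposite calls, a rise in SUM149PT without a call in HCC38, and a fall in HCC38 without a call in SUM149PT.

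**Figure D3:**
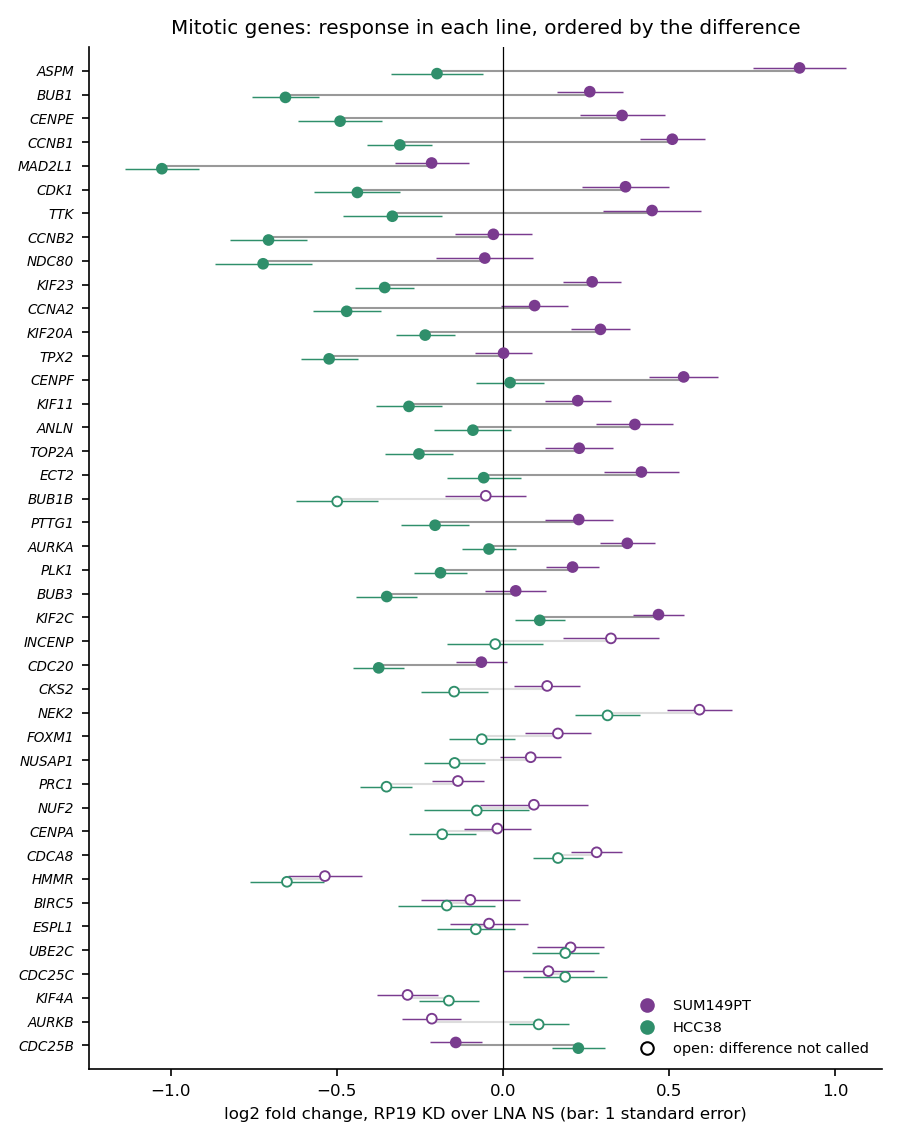
Log2 fold change of RP19 KD over LNA NS for each of the 42 tested mitotic genes in SUM149PT (purple) and HCC38 (green), with bars of 1 standard error and open symbols where the difference was not called. SUM149PT lies to the right of HCC38 for 38 of the 42 genes, with ASPM at 0.89 and -0.199 at the top and CDC25B in the reverse order at the bottom.

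The earlier wave of the cell cycle did not show this. Of 54 E2F targets of G1/S and replication, 8 had a higher and 3 a lower response in SUM149PT, with a median difference of 0.02, and the median response was -0.29 in SUM149PT and -0.29 in HCC38. RFC3, a clamp loader subunit, had a response of 0.05 in SUM149PT and fell in HCC38 (-0.55), and CDT1, the replication licensing factor, fell in SUM149PT (-0.34) with 0.15 in HCC38. Neither difference passed with GC and span trends removed, where 2 members were higher and 4 lower. Among the 8 E2F genes, E2F1 had a lower response (-0.35, adjusted p = 0.0796) and E2F3 a higher one (0.43, adjusted p = 0.0796), and both were lost in 6 of the 8 fits with a library left out and with GC and span trends removed. The other 6 did not pass, but E2F8, one of them, had a lower response with GC and span trends removed (-0.61, adjusted p = 0.0392). Of 20 regulators of the RB axis, 2 were higher and 3 lower, or 1 and 2 in that setting.

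TFDP1, the DP partner with which E2F proteins bind DNA, differed most on that axis. It had 134 and 128 CPM in the knock-down libraries of SUM149PT against 371 and 355 CPM with LNA NS, and 130.3 and 124 CPM in those of HCC38 against 190.4 and 194 CPM. It fell in both lines, to similar levels, and further in SUM149PT, by a difference of -0.87 (standard error 0.123, adjusted p = 9.72e-04). FBXW7, the ubiquitin ligase subunit that marks cyclin E, had a response of 0.14 in SUM149PT and fell in HCC38 (-0.69). CDKN1B, which encodes the CDK inhibitor p27, had a response of -0.15 in SUM149PT and rose in HCC38 (0.47). Both differences passed under each alternative.

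Of 50 genes of DNA repair and the damage checkpoint, 12 had a higher response in SUM149PT and 1 a lower one, with a median difference of 0.22. These counts were the least stable of the larger lists, at 1 to 18 higher over the alternatives and 5 higher with GC and span trends removed. ATR, the kinase that senses replication stress, had a response of 0.06 in SUM149PT and fell in HCC38 (-0.74). The lower gene, XRCC1, a scaffold of single-strand break repair, had 12.2 and 13.9 CPM after knock-down against 31.4 and 31.8 CPM with LNA NS in SUM149PT, and 33.1 and 39.02 against 44.6 and 47.04 CPM in HCC38. It fell in both lines and more in SUM149PT (-0.94, adjusted p = 0.00238), under each alternative. Of 43 p53 targets, 7 were higher and 6 lower, or 6 and 1 with GC and span trends removed. The p53 targets PLK2 and BID rose in SUM149PT (0.48 and 0.47) without a call in HCC38, and DDB2, a sensor of UV damage, fell in SUM149PT (-0.76) with -0.095 in HCC38. PMAIP1, the pro-apoptotic BH3 gene NOXA, rose in both lines, at 59.2 and 71.6 CPM against 21.9 and 24.3 CPM in SUM149PT and 301 and 291 CPM against 141 and 122 CPM in HCC38, and its difference of 0.33 did not pass (adjusted p = 0.348). The differences of CDKN1A (-0.17, standard error 0.134) and GADD45A (-0.14, standard error 0.192), both p53 targets that restrain the cell cycle, did not pass either. Unlike PMAIP1, CDKN1A was called in neither line (-0.06 in SUM149PT and 0.11 in HCC38). GADD45A rose in HCC38 (0.38, adjusted p = 0.0487) without a call in SUM149PT (0.24). Of 35 core apoptosis genes, 4 were higher and 6 lower, or 5 and 3 with these trends removed.

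Cytosolic heat shock genes had higher responses in SUM149PT as well. These chaperones fold proteins in the cytosol and, for a few members, in mitochondria. Of 27 tested, 11 had a higher response in SUM149PT and 1 a lower one, with a median difference of 0.30. Over the alternatives 7 to 12 were higher and 0 to 2 lower, with 10 and 0 after removal of the GC and span trends. HSPH1, a nucleotide exchange factor of HSP70, had 498 and 409.6 CPM in the knock-down libraries of SUM149PT against 284 and 278 CPM with LNA NS, and 299 and 235 CPM in those of HCC38 against 369.6 and 330.1 CPM. It rose in SUM149PT and fell in HCC38, with no overlap of the groups in either line, by a difference of 1.08 (standard error 0.161, adjusted p = 0.00146). The mitochondrial chaperonin HSPD1 also rose in SUM149PT (0.38) and fell in HCC38 (-0.49). The constitutive HSP70 gene HSPA8 had a response of 0.12 in SUM149PT and fell in HCC38 (-0.498), and the HSP40 gene DNAJA1 rose in SUM149PT (0.49) with -0.11 in HCC38. The lower member, the small heat shock gene HSPB1, fell in SUM149PT, with 245 and 245 CPM against 386 and 439.6 CPM, beside 235 and 263 CPM against 256 and 239 CPM in HCC38. Its difference of -0.76 became -0.28 with GC and span trends removed and no longer passed. Of 27 chaperones and unfolded protein response genes of the endoplasmic reticulum, 3 were higher and 1 lower (4 and 1 with GC and span trends removed), among them the stress sensor ATF6, which had a response of -0.18 in SUM149PT and fell in HCC38 (-0.84).

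Of 19 feedback genes of ERK signalling, which are switched on by growth factors and damp the pathway, 5 had a lower and 2 a higher response in SUM149PT (4 to 6 and 2 to 3 over the alternatives, 6 and 3 with GC and span trends removed). Of 29 AP-1 and immediate early genes, 5 were lower and 3 higher, a balance that became 3 lower and 6 higher with GC and span trends removed. JUN, an AP-1 subunit, had 84.01 and 83.99 CPM in the knock-down libraries of SUM149PT against 65.9 and 63.9 CPM in its LNA NS libraries, and 103 and 101 CPM in those of HCC38 against 42.04 and 46.9 CPM. It rose in both lines, and more in HCC38, by a difference of -0.82 (standard error 0.145, adjusted p = 0.00371). DUSP1, a phosphatase of MAP kinases, had 20.8 and 23.4 CPM against 20.4 and 19.1 CPM in SUM149PT and 17.00 and 17.05 CPM against 8.43 and 7.04 CPM in HCC38. The SUM149PT response of 0.16 was not called and the HCC38 rise of 1.14 was, and the difference was -0.97 (adjusted p = 0.00426).

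The same order was found for the phosphatase genes DUSP8 (0.19 in SUM149PT, 1.13 in HCC38) and DUSP10 (0.01 and 0.75). KLF6, a zinc finger factor, fell in SUM149PT (-0.34) and rose in HCC38 (0.46). For JUND and JUNB, responses of -0.01 and -0.19 in SUM149PT stood beside rises of 0.92 and 0.52 in HCC38, and with GC and span trends removed the difference of JUND was -0.34 (adjusted p = 0.0869) and that of JUNB no longer passed. Higher responses in SUM149PT were called for 5 members of the 2 lists together. They included CCN2, a matricellular target of YAP, and ERRFI1, an inhibitor of the EGF receptor. CCN2 had 21.8 and 23.1 CPM against 11.03 and 11.7 CPM in SUM149PT, where it rose, and 119 and 119 CPM against 140.5 and 135 CPM in HCC38, a difference of 1.19 (standard error 0.129, adjusted p = 1.45e-04). ERRFI1 rose in SUM149PT (0.51) with -0.11 in HCC38. The other 3, named after their values were seen, were the phosphatase gene DUSP5 (0.76 in SUM149PT, 0.08 in HCC38), the AP-1 gene FOSL1 (0.45 and -0.09) and the nuclear receptor gene NR4A1 (1.18 and 0.71), of which only NR4A1 was also called in HCC38. Of the 14 genes of the EGF receptor family and its ligands, 2 were higher and 2 lower, or 2 and 4 with GC and span trends removed. The ligand gene TGFA had a response of 0.06 in SUM149PT and fell in HCC38 (-0.74), and the ligand gene NRG1 fell in both, further in SUM149PT (-1.96 and -1.09), a difference lost in 4 of the 8 fits with a library left out.

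The ATF4 branch of the integrated stress response, which raises amino acid supply and the pro-apoptotic factor CHOP when translation is impaired, had more lower than higher responses in SUM149PT. Of 29 tested targets, 10 were lower and 5 higher (7 to 11 and 3 to 5 over the alternatives, 7 and 3 with GC and span trends removed). DDIT3, which encodes CHOP, had 37.9 and 44.9 CPM in the knock-down libraries of SUM149PT against 37.2 and 43.4 CPM with LNA NS, and 36.8 and 44.99 CPM in those of HCC38 against 20.97 and 18.9 CPM. The SUM149PT groups overlapped and the HCC38 groups did not, so that knock-down cells of HCC38 reached the level that SUM149PT had with either treatment, and the difference was -0.998 (standard error 0.1804, adjusted p = 0.00424). STC2, a secreted glycoprotein, had 185 and 192 CPM against 164 and 158 CPM in SUM149PT and 64.7 and 63.9 CPM against 29.6 and 30.9 CPM in HCC38, a difference of -0.86 (adjusted p = 0.00262). NUPR1, a chromatin-associated stress protein, rose in both lines, at 8.85 and 10.4 CPM against 4.71 and 6.35 CPM in SUM149PT and 174 and 212 CPM against 54.4 and 55.2 CPM in HCC38, and more in HCC38 (-1.02). The amino acid transporter gene SLC7A5 had a response of 0.15 in SUM149PT and rose in HCC38 (0.81), and the tRNA exportin gene XPOT rose in SUM149PT (0.54) with -0.24 in HCC38. All 5 differences passed under each alternative. The list's median difference was -0.06, with members on both sides.

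Of 23 glucocorticoid receptor targets, 8 were lower and 4 higher in SUM149PT (6 to 9 and 3 to 5 over the alternatives, 9 and 4 with GC and span trends removed). The list's median difference was -0.17, with 11 members positive and 12 negative, and 0.10 with GC and span trends removed. SUM149PT was the line grown with hydrocortisone, and any part of it in these counts was not tested. PER1, a clock gene, had 259 and 274 CPM in the knock-down libraries of SUM149PT against 192 and 179 CPM with LNA NS, and 12.9 and 14.6 CPM in those of HCC38 against 4.59 and 4.995 CPM. It rose in both lines, by more log2 units in HCC38 from a far lower level (-0.995, adjusted p = 9.57e-04). LCN2, a secreted iron-sequestering protein, had 136 and 138 CPM against 178 and 194 CPM in SUM149PT and 11.8 and 13.4 CPM against 7.73 and 7.33 CPM in HCC38. It fell in SUM149PT and rose in HCC38, without overlap (-1.18, standard error 0.142, adjusted p = 3.51e-04). CEBPD, a C/EBP transcription factor, had opposite calls of the same kind (-0.55 and 0.4003), and GADD45B rose in SUM149PT (1.06) with 0.23 in HCC38.

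Interferon-stimulated genes went both ways. Of 43 tested, 9 had a higher and 5 a lower response in SUM149PT, with a median difference of 0.13, or 8 and 3 with GC and span trends removed. ISG15, a ubiquitin-like modifier, had 52.8 and 61.1 CPM in the knock-down libraries of SUM149PT against 44.4 and 49.5 CPM with LNA NS, and 421 and 522 CPM in those of HCC38 against 182 and 166 CPM. It rose in both lines and far more in HCC38, by a difference of -1.16 (standard error 0.159, adjusted p = 8.46e-04). HERC6, an E3 ligase gene, had the reverse arrangement, with 23.97 and 20.7 CPM against 11.5 and 8.502 CPM in SUM149PT and 52.7 and 47.6 CPM against 60.8 and 56.4 CPM in HCC38, a difference of 1.38 (standard error 0.191, adjusted p = 9.10e-04). IFI44 rose in SUM149PT, with 15.1 and 14.6 CPM against 5.597 and 5.21 CPM, beside 159 and 158 CPM against 155 and 132 CPM in HCC38. DDX60, a helicase that aids viral RNA sensing, and HERC5, the ligase that attaches ISG15, also rose in SUM149PT (0.87 and 1.22). For HERC6, IFI44, DDX60 and HERC5, the level in every SUM149PT library stayed below that in every HCC38 library, so the larger response was from the lower level.

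Of 29 NF-κB-driven cytokines and chemokines, 4 were higher and 2 lower, or 6 and 1 with GC and span trends removed. Of 22 NF-κB subunits and feedback inhibitors 2 were higher and 1 lower, or 8 and 1 in that setting. IL6, a pro-inflammatory cytokine, had 19.2 and 19.1 CPM against 13.2 and 14.9 CPM in SUM149PT and 24.5 and 25.9 CPM against 9.92 and 9.68 CPM in HCC38, rose in both and more in HCC38 (-0.91, adjusted p = 0.00624). TNF had 23.4 and 24.99 CPM against 9.08 and 8.89 CPM in SUM149PT and 3.605 and 3.61 CPM against 2.75 and 2.23 CPM in HCC38, rose in both and more in SUM149PT (0.89, adjusted p = 0.0256, lost without LNA NS replicate 1 of HCC38). TNFAIP2, a TNF-induced gene, had 282 and 302 CPM against 174 and 163 CPM in SUM149PT, where it rose, and 207 and 196 CPM against 209.8 and 234 CPM in HCC38, a difference of 0.93 (standard error 0.126, adjusted p = 7.19e-04). BIRC3, an inhibitor of apoptosis that also regulates NF-κB, rose in both lines and more in SUM149PT (1.17 and 0.42), and NFKBIZ, an atypical IκB protein, rose more in HCC38 (0.45 and 1.12), a difference lost in 3 of the 8 fits with a library left out. Both lists thus held members of both orders, with median differences of 0.28 and 0.19. Over all genes 9.55% were higher and 6.64% lower, and 20.8% of protein-coding genes were called in either direction. With the GC and span trends left in, the counts therefore set neither list apart.

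**Figure D4:**
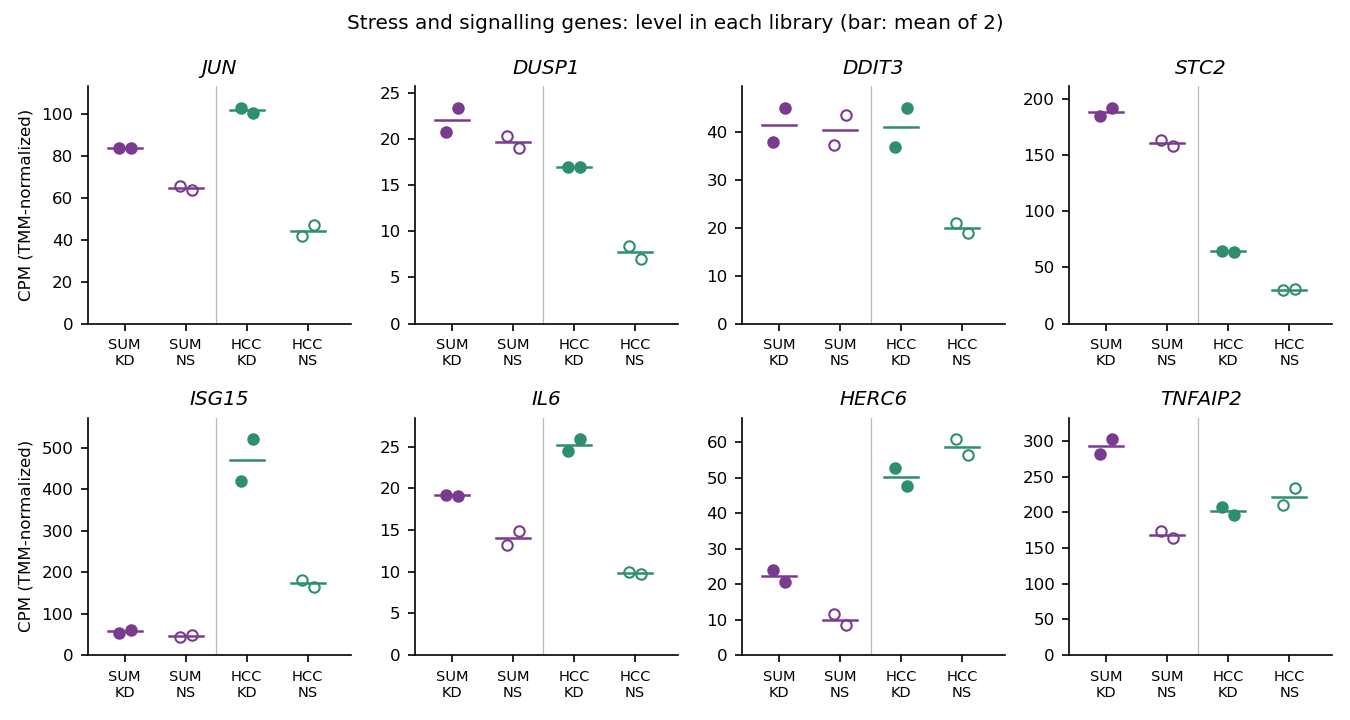
CPM of 8 stress and signalling genes in each library, with knock-down (filled) left of LNA NS (open) for SUM149PT (purple) and then HCC38 (green), and bars at the mean of 2 libraries. HERC6 and TNFAIP2 rose in SUM149PT, with TNFAIP2 at 282 and 302 against 174 and 163 CPM, and JUN, DUSP1, DDIT3, STC2, ISG15 and IL6 changed more in HCC38, with DDIT3 at 36.8 and 44.99 against 20.97 and 18.9 CPM there.

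Genes of cell identity were called in both directions. Of 34 genes of the epithelial-mesenchymal transition, 8 were lower and 1 higher (5 to 9 and 1 to 3 over the alternatives, 7 and 1 with GC and span trends removed), and of 19 basal markers 6 were lower and 1 higher (4 to 8 and 1 to 2, and 5 and 2). Of 41 genes of keratinocyte differentiation 8 were lower and 5 higher (5 to 8 and 3 to 6 over the alternatives), and that order was lost with GC and span trends removed, where 6 were lower and 6 higher. Of 15 luminal markers 2 were lower and 2 higher, or 1 and 3 in that setting. LOXL2, a lysyl oxidase that crosslinks collagen, had 26.5 and 25.4 CPM in the knock-down libraries of SUM149PT against 109 and 99.5 CPM with LNA NS, and 41.9 and 42.6 CPM in those of HCC38 against 70.2 and 77.3 CPM. It fell in both lines and further in SUM149PT (-1.204, standard error 0.1297, adjusted p = 1.45e-04). TGFBI, an extracellular matrix protein induced by TGF-β, also fell in both and further in SUM149PT (-1.08 and -0.36), while the receptor tyrosine kinase gene AXL fell in SUM149PT (-0.49) with 0.09 in HCC38. The higher member was VIM, the mesenchymal intermediate filament, with 308 and 266 CPM against 159.5 and 175 CPM in SUM149PT, where it rose, and 532 and 556 CPM against 568 and 464 CPM in HCC38 (0.7002, adjusted p = 0.00982). KRT16, a keratin of activated keratinocytes, fell in SUM149PT (-0.53) with 0.19 in HCC38. GRHL3, a transcription factor of the epidermal barrier, rose in SUM149PT, with 13.2 and 18.2 CPM against 2.68 and 2.997 CPM, beside 2.62 and 3.097 CPM against 2.05 and 2.19 CPM in HCC38, a difference of 2.04 (standard error 0.245, adjusted p = 3.51e-04).

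Some of these calls rest on a line in which the gene was nearly silent. KRT17, a basal keratin, had 294 and 307 CPM in the knock-down libraries of SUM149PT against 415 and 402 CPM with LNA NS, and rose in HCC38 at 1.46 and 1.05 CPM against 0.5899 and 0.512 CPM. KRT14, its relative, rose in HCC38 at 0.915 and 1.64 CPM against 0.5899 and 0.368 CPM. TWIST1, a mesenchymal transcription factor, fell in SUM149PT (14.9 and 16.6 CPM against 22.1 and 23.9 CPM) and rose in HCC38 in the same low range (1.04 and 1.43 CPM against 0.655 and 0.471 CPM). Over 17 genes at 30 CPM or more in SUM149PT and under 1.5 CPM in every HCC38 library and on average in MDA-MB-468, the summed level in HCC38 libraries was 0.4001% and 0.451% of the SUM149PT level after knock-down, against 0.348% and 0.273% with LNA NS. Over 38 genes high in HCC38 by the same rule, the summed level in SUM149PT libraries was 0.525% and 0.514% of the HCC38 level after knock-down, against 0.473% and 0.405% with LNA NS. Genes silent in a line therefore stood slightly higher in its knock-down libraries as a group, and the source of these reads was not tested. Of 446 tested genes under 1 CPM in every SUM149PT library and at 5 CPM or more in a group of HCC38, 63 (14.1%) were called, 52 of them higher in SUM149PT. Of 171 under 1 CPM in HCC38, 24 (14.04%) were called, 21 of them lower. Both shares lay below the 16.2% over all genes, but the calls were one-sided. The 52 of 446 higher and the 21 of 171 lower lay above the shares over all genes in those directions, 9.55% and 6.64%. The phosphatase gene DUSP2, for example, had 1 and 0 counts after knock-down against 11 and 7 with LNA NS in SUM149PT, and 1513 and 1102 against 1058 and 1021 counts in HCC38, and the solute carrier gene SLC17A9 had 32 and 18 counts after knock-down against 3 and 2 in HCC38. Both examples were called in both lines, in opposite directions.

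In the PI3K, AKT and mTOR pathway, which couples growth factor receptors to protein synthesis, 7 of 40 genes had a higher and 4 a lower response in SUM149PT, or 6 and 4 with GC and span trends removed. PIK3CA, the catalytic subunit gene, rose in SUM149PT (0.55) and fell in HCC38 (-0.46). IGF1R, the IGF1 receptor gene, had 98.2 and 91.7 CPM in the knock-down libraries of SUM149PT against 132 and 101 CPM with LNA NS, and 17.2 and 17.2 CPM in those of HCC38 against 39.6 and 51.00 CPM. Its fall in HCC38 was called, and the difference was 1.104 (adjusted p = 0.00462). Both differences passed under each alternative.

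Metabolic genes were mixed. EPAS1, which encodes the hypoxia-inducible factor HIF-2α, had 128 and 111 CPM in the knock-down libraries of SUM149PT against 373 and 312 CPM with LNA NS, and 262 and 219.6 CPM in those of HCC38 against 229.7 and 295 CPM. It fell in SUM149PT and its groups overlapped in HCC38 (-1.397, standard error 0.194, adjusted p = 9.10e-04). Of the 38 genes of glycolysis and hypoxia, 4 were higher and 3 lower, or 5 and 2 with GC and span trends removed. The first of these counts lay near the shares over all genes, 9.55% higher and 6.64% lower. HK1, a hexokinase gene, fell in both lines and further in HCC38 (-0.65 and -1.31), and the glucose transporter gene SLC2A1 fell in SUM149PT (-0.505) with 0.01 in HCC38. Of 33 genes of cholesterol synthesis, 6 were higher and 5 lower, or 2 and 4 with GC and span trends removed. FDFT1, squalene synthase, fell in both lines and further in HCC38 (-0.49 and -0.98), and LSS, lanosterol synthase, fell in both and further in SUM149PT (-0.86 and -0.25, adjusted p = 0.0968 for the HCC38 fall). Of 30 NRF2 targets, 5 were higher and 4 lower, or 7 and 4 with these trends removed. TXNRD1, thioredoxin reductase, had 356 and 350.4 CPM against 277 and 260.1 CPM in SUM149PT, where it rose, and 943 and 824 CPM against 1136 and 1136 CPM in HCC38, where it fell (0.76, adjusted p = 0.00171).

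Among protein-coding genes with a mean of 5 CPM or more in at least 1 group of each line, the most positive difference was that of FES, a cytoplasmic tyrosine kinase. It had 7.33 and 9.86 CPM in the knock-down libraries of SUM149PT against 0.643 and 0.195 CPM with LNA NS, and 17.1 and 18.3 CPM in those of HCC38 against 12.1 and 13.1 CPM. It met the 5 CPM rule in SUM149PT only through its knock-down libraries. Nearly silent in SUM149PT with LNA NS, it reached a level after knock-down somewhat below that of HCC38, and its difference was 3.79 (standard error 0.373, adjusted p = 8.47e-05). VASN, a membrane glycoprotein that binds TGF-β, had the smallest adjusted p of the genes named here (1.07e-06). It had 18.9 and 21.3 CPM against 6.19 and 5.34 CPM in SUM149PT, where it rose, and 88.8 and 94.5 CPM against 138 and 145 CPM in HCC38, where it fell, a difference of 2.42 (standard error 0.149).

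TMCC3, a membrane protein of the endoplasmic reticulum, and CTSS, a lysosomal cysteine protease, rose in SUM149PT without a call in HCC38. TMCC3 had 26.8 and 25.9 CPM against 7.66 and 5.57 CPM in SUM149PT and 18.98 and 15.6 CPM against 17.98 and 19.1 CPM in HCC38 (2.09). For CTSS these were 6.68 and 7.19 against 2.06 and 1.92 CPM and 39.5 and 36.03 against 39.4 and 35.8 CPM (1.78). PYGM, the glycogen phosphorylase of muscle, and TENT5C, a poly(A) polymerase, rose in both lines and more in SUM149PT. PYGM was at 12.1 and 16.2 CPM against 0.482 and 0.358 CPM in SUM149PT and at 39.98 and 43.5 CPM against 3.98 and 4.75 CPM in HCC38 (1.78, adjusted p = 0.00676), and TENT5C at 7.01 and 7.75 CPM against 0.803 and 0.977 CPM and at 23.04 and 22.5 CPM against 8.89 and 8.86 CPM (1.697). DEPP1, a FOXO target, also rose in both (2.29 and 0.64). In SUM149PT, CTSS, PYGM, TENT5C and DEPP1 met the 5 CPM rule only through their knock-down libraries, as FES did. PYGM did so in HCC38 too.

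At the other end, RYR2, the calcium release channel best known in heart muscle, had 41.98 and 45.1 CPM in the knock-down libraries of SUM149PT against 15.02 and 11.6 CPM with LNA NS, and 8.14 and 7.35 CPM in those of HCC38 against 0.5899 and 0.696 CPM. It rose in both lines and more in HCC38, by a difference of -1.88 (standard error 0.268, adjusted p = 0.00106). In HCC38 it met the 5 CPM rule only through its knock-down libraries. ALPK1, a kinase that senses a bacterial sugar, and PARVB, a focal adhesion protein, fell in both lines and further in SUM149PT, at -3.16 and -1.47 for ALPK1 and -2.64 and -0.97 for PARVB. ALPK1 met the 5 CPM rule in both lines only through its LNA NS libraries. PITPNA, a phosphatidylinositol transfer protein, fell in SUM149PT, with 71.4 and 63.05 CPM against 154 and 153 CPM, beside 119 and 114 CPM against 97.9 and 106 CPM in HCC38 (-1.38, adjusted p = 8.47e-05). RAPGEFL1, a guanine nucleotide exchange factor-like protein, had 29.01 and 28.97 CPM against 29.2 and 26.8 CPM in SUM149PT and 44.9 and 46.4 CPM against 16.3 and 17.9 CPM in HCC38, where it rose (-1.37, adjusted p = 1.45e-04). The differences of these 12 genes, FES to RAPGEFL1, passed under every alternative that could be fitted.

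Opposite calls were also found for genes with other roles. ITGA4, the integrin α4 subunit, had 7.25 and 6.39 CPM against 4.097 and 3.26 CPM in SUM149PT, where it rose, and 64.8 and 43.4 CPM against 91.2 and 106 CPM in HCC38, where it fell (1.75, standard error 0.247, adjusted p = 9.88e-04). LAMA2, a laminin chain, had the same pair of calls (0.72 and -0.71), as did the sorting nexin gene SNX30 (0.55 and -0.52). The reverse was found for NEU1, the lysosomal sialidase, with 39.4 and 36.04 CPM against 67.1 and 68.4 CPM in SUM149PT, where it fell, and 96.1 and 94.5 CPM against 63.7 and 61.1 CPM in HCC38, where it rose (-1.46, standard error 0.143, adjusted p = 8.47e-05). All 4 NEU1 groups had replicates within a few CPM of each other. PODXL, a sialomucin of the cell surface, TRAF3IP1, a protein of intraflagellar transport, and ZIC1, a zinc finger transcription factor, also fell in SUM149PT (-0.54, -0.66 and -0.68) and rose in HCC38 (0.73, 0.64 and 0.51). RPL39 had opposite calls as well, but with knock-down libraries of SUM149PT at 40.3 and 21.7 CPM against 12.3 and 21.4 CPM with LNA NS its groups touched, and the difference was lost without knock-down replicate 1 of SUM149PT or LNA NS replicate 1 of HCC38. In SUM149PT, ITGA4 and LAMA2 met the 5 CPM rule only through their knock-down libraries.

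Zinc finger genes named ZNF with a number, a group added after the values were seen because several headed the list of differences, had 131 higher and 17 lower of 474 tested, with a median difference of 0.37. On chromosome 19, where most KRAB zinc finger genes lie in clusters, 87 were higher and 7 lower of 236, with a median of 0.58, and elsewhere 44 were higher and 10 lower of 238, with a median of 0.18. With GC and span trends removed the counts were 97 higher and 12 lower in all. ZNF28 had 33.8 and 29.4 CPM in the knock-down libraries of SUM149PT against 10.1 and 9.19 CPM with LNA NS, and 28.1 and 28.2 CPM in those of HCC38 against 30.1 and 27.1 CPM. ZNF468 had 34.2 and 34.3 against 11.7 and 10.2 CPM and 28.8 and 27.1 against 26.9 and 27.5 CPM. Both rose in SUM149PT and were not called in HCC38, reaching about the level at which HCC38 had them with either treatment. They also rose in MDA-MB-468, by 1.18 for ZNF28 and 1.24 for ZNF468. These genes are alike in sequence, and the part of reads shared among them was not tested. ZNF28 (chr19:53300661-53360853) and ZNF468 (chr19:53341263-53360902) overlap in the annotation on the minus strand, so they are not shown to be separate examples.

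Of 78 cytosolic ribosomal protein genes, 4 were higher and 0 lower, among them RPL9 (0.77), with a median difference of 0.0040, and 7 were higher with GC and span trends removed. These genes have many processed pseudogenes, and the reads they share were not tested. Of 13 mitochondrial mRNAs, 4 were higher and 0 lower, with a median of 0.31 and counts of 0 to 8 higher over the alternatives and 7 with GC and span trends removed, beside the mitochondrial shares given above. Of 19 nuclear lncRNAs and snoRNA host genes, 5 were higher and 1 lower, or 4 and 1 with GC and span trends removed. The host gene SNHG1 had 492 and 464 CPM against 195 and 225 CPM in SUM149PT and 239 and 255 CPM against 206 and 176 CPM in HCC38, and rose in both, more in SUM149PT (0.82, adjusted p = 0.00727), while NORAD, a cytoplasmic lncRNA that binds Pumilio proteins, had a response of 0.03 in SUM149PT and rose in HCC38 (0.58). Of 21 replication-dependent histone genes tested among 49 listed, 1 was higher and 2 lower, with a median difference of -0.95 that was -0.58 with GC and span trends removed, and their mRNAs mostly lack the poly-A tail that these libraries select. Of 8 fibroblast markers 0 and 1, of 4 tested immune markers 1 and 1, and of 4 tested endothelial and erythroid markers 1 and 0.

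Of the 11 tested genes near the lncRNA on chromosome 2, 1 was higher and 1 lower. EN1, the homeobox gene beside it, had 18.9 and 21.5 CPM in the knock-down libraries of SUM149PT against 20.7 and 25.9 CPM with LNA NS, and 75.8 and 86.3 CPM in those of HCC38 against 55.04 and 61.6 CPM. It rose in HCC38 and its groups overlapped in SUM149PT, a difference of -0.68 (standard error 0.198, adjusted p = 0.0423) that was lost in 4 of the 8 fits with a library left out. MARCO, a scavenger receptor gene, rose in SUM149PT (1.42) with 0.46 in HCC38 (adjusted p of the difference = 0.0606), which was lost in 5 of these 8 fits.

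**Figure D5:**
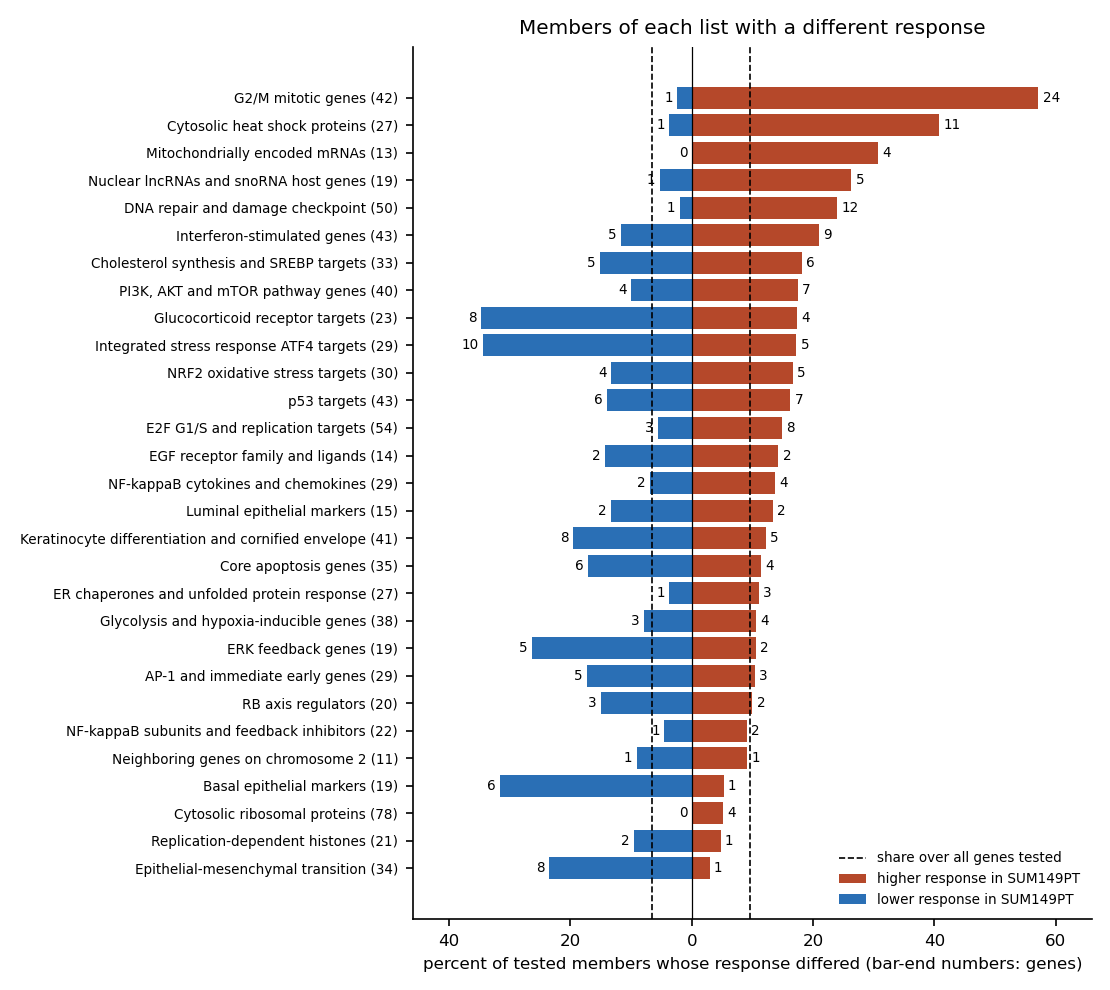
Percent of tested members of each list whose response was called higher (red, to the right) or lower (blue, to the left) in SUM149PT, with gene numbers at the bar ends, list sizes in parentheses and dashed lines at the shares over all genes, 9.55% and 6.64%. The mitotic (24 of 42) and heat shock genes (11 of 27) reach farthest to the right, and the glucocorticoid (8 of 23) and ATF4 targets (10 of 29) farthest to the left. Among protein-coding genes, which fill most lists, 20.8% were called in either direction, against 16.2% over all genes.

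MDA-MB-468, grown according to the methods in DMEM/F12 with serum, was set beside both lines as a description. Among genes with a mean of 5 CPM or more in at least 1 group of each line and with more than a 2-fold difference, its response lay nearer to SUM149PT for 80 of 121 genes with a higher response in SUM149PT (66.1%) and for 80 of 97 with a lower one (82.5%). Of all tested genes, 50.6% were called in this line, 24.9% risen and 25.7% fallen. Among 7708 genes with no called difference it was nearer to SUM149PT for 57.6%. Of the 42 mitotic genes, 28 rose and 3 fell in MDA-MB-468, with a median response of 0.39, against 0.18 in SUM149PT and -0.19 in HCC38. For FES its response was 4.49 and for EPAS1 -1.94, near SUM149PT, and for JUN and STC2 0.92 and 1.15, nearer to HCC38. MDA-MB-468 thus sided with each of the other lines for different genes.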

How the data were processed

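For every library the authors deposited raw read counts by Ensembl gene ID, without normalization. The study's methods name STAR 2.5.0c and HTSeq on GRCh37 (hg19), while the submitters' processing notes list TopHat2 2.0.13 and HTSeq 0.6.0, so the aligner of these counts is not settled. As for the annotation release, none of the sources used here gives it. Summary lines that name no gene held 40.8% to 53.7% of counts per library and were left out. Genes were filtered by filterByExpr (minimum count 10, minimum total 15), run by group over the 12 libraries, which does not require counts in every library. Those passing were fitted on all 12 libraries with edgeR 4.0.16 (limma 3.58.1, R 4.3.3), with TMM, 1 mean for each of 6 groups and 6 residual degrees of freedom. The fit was tested on simulated data. DESeq2 1.42.0, other scalings and filters, thinning to equal depth, and fits without each library were alternatives. Gene names and positions come from GENCODE lifted to GRCh37 (55665 of 63677 genes matched, the others holding 0.636% of counts), and promoters from RefSeq.

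The members and the 33 lists (994 entries, 27 unmatched) were chosen with earlier results of these data known. Genes named are the lncRNA and those the paper names, the 12 most positive and 12 most negative differences and the 8 clearest opposite responses of each kind among genes averaging 5 CPM or more in at least 1 group of each line, from each list the 5 called genes with the smallest p at most, and the 6 most positive and 6 most negative among genes under 1 CPM in one line. A few of these genes are not reported here. No column of per-sample values was left unused. Intervals were not computed. Each standard error is the absolute log2 value divided by the square root of the F statistic of its test.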

Additional observations from a re-analysis of the deposited data

Results flagged for a closer look

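A difference between SUM149PT and HCC38 under the same contrast is the subject of the report, and the interaction test itself is what marks these results. It marked 3453 genes, 824 of them by more than 2-fold, and 370 genes with opposite calls. The lncRNA fell further in SUM149PT, by a log2 difference of -1.32.

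Opposite calls are named here where the smaller of the 2 responses was largest, among genes averaging 5 CPM or more in at least 1 group of each line, each with its log2 difference of responses. The 8 genes that rose in SUM149PT and fell in HCC38 were VASN (2.42), MT-TP (2.07), ZNF559 (1.84), RPL39 (1.84), ITGA4 (1.75), LAMA2 (1.43), C10orf88 (1.26) and SNX30 (1.06). The 8 that fell in SUM149PT and rose in HCC38 were LMLN (-1.61), NEU1 (-1.46), VGF (-1.34), TRAF3IP1 (-1.30), ADPRHL1 (-1.30), PODXL (-1.27), VCAN (-1.19) and ZIC1 (-1.18). Among these, the mitochondrial tRNA gene MT-TP had 9.65 and 4.25 CPM in the knock-down libraries of SUM149PT against 3.19 and 3.78 CPM with LNA NS, and 3.62 and 4.17 CPM in those of HCC38 against 11.1 and 5.06 CPM, so that replicate 1 stood apart in 2 groups. RPL39 had the same arrangement. Both were lost in 2 of the 8 fits with a library left out. MT-TP, ZNF559, ITGA4, LAMA2, C10orf88, LMLN, VGF and ADPRHL1 met the 5 CPM rule in a line only through the treatment in which they were higher.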

How the results depend on the processing

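Leaving out each of the 8 libraries in turn gave 1519 to 3183 genes with a different response, 477 to 936 by more than 2-fold, and 147 to 352 with opposite calls. The 11 other settings kept these 3 counts within 1.5 times the values reported: 2536 to 4300 genes were called, the lowest with the replicate number as a block within each line and the highest with HCC38 crossed. The labels do not say whether libraries of the same replicate number were paired. Their deviations from the group means had correlations of 0.097 in SUM149PT and -0.118 in HCC38, which cannot settle this. The replicate block gave 2536 genes, of which 2475 had been called without it, and a block with HCC38 crossed, added after the data were seen, gave 4300. The lncRNA passed in every fit. Of 3519 pairs of a named gene and a setting, 3142 kept their side of the threshold and their direction, 351 no longer passed, 8 newly passed and 18 changed sign, all 18 for genes without a called difference. With the GC trend removed the differences were 0.058 for CDKN1A, 0.021 for GADD45A, -0.19 for CCNE2, -0.094 for SKP2 and 0.16 for E2F4, and with GC and span trends removed 0.044, 0.092, -0.22, -0.16 and 0.18. With a library left out they were -0.28 to 0.0070 for GADD45A, -0.13 to 0.35 for CCNE2 and -0.17 to 0.12 for E2F5, positive for E2F5 also without a filter on low counts (0.0032) and with thinned counts (0.0086). The cause of these changes was not tested. With 2 libraries per group and few counts, differences of genes under 1 CPM in a line are the least precise.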
